A study of Rattus norvegicus with 78 samples.

Results

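The genes described here are 10 genes of the extracellular matrix, namely the collagen chains Col1a1, Col1a2, Col3a1, Col5a1, Col5a2 and Col4a1, the small leucine-rich proteoglycans Dcn (decorin), Bgn (biglycan) and Lum (lumican), and Sparc, a secreted collagen-binding protein. Every probeset whose single gene symbol in the array annotation is 1 of these names was taken, which gave 16 of the 31042 probesets that are not controls. A probeset is a group of short probes that together report the level of 1 transcript. The study asked which genes differ between FSL and FRL rats in 2 brain regions and in 2 cohorts of animals. The Flinders Sensitive Line (FSL) was bred selectively and shows depression-like behaviour, and the Flinders Resistant Line (FRL) is its control. Adult males of both lines had a forced swim test 1 week before the tissue was taken. Cohort 1 held 12 FRL and 9 FSL rats and cohort 2, set up 6 months later, held 10 FRL and 8 FSL rats. The right hemisphere gave RNA from hippocampus (HIP) and from prefrontal/frontal cortex (P/FC, the whole frontal lobe), which was hybridised to Affymetrix rat arrays, with 39 arrays of each region and 78 in all.

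Collagens are the main fibre-forming proteins of connective tissue. Type I collagen is built from the chains of Col1a1 and Col1a2 and type III from that of Col3a1, while the type V chains of Col5a1 and Col5a2 help to start fibrils and to set their width. Type IV collagen, of which Col4a1 encodes a chain, does not form fibrils but the network of basement membranes, which in the brain lies around blood vessels. Decorin, biglycan and lumican each carry sugar chains on a leucine-rich core and bind collagen fibrils. In the brain, fibrillar collagens and these proteoglycans are known mostly from the meninges and the walls of vessels, whereas Sparc is also made by glial cells.

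Array values are signal intensities in arbitrary units. The median intensity of an array was 56.8 to 63.0 in HIP and 60.8 to 65.9 in P/FC, and the highest correlation between any 2 arrays was 0.98, so that no array was a copy of another. The number of arrays limits the precision. Probesets entered the tests of a region where 50% or more of the FRL arrays and likewise of the FSL arrays exceeded an intensity of 30, which left 21630 probesets in HIP and 22370 in P/FC. Of the 16 member probesets, 14 were tested in HIP and 15 in P/FC. The dimmer probesets of Col1a1 and Col1a2 were not tested in HIP. Lum was not tested in P/FC, where it was above 30 in 15 of 22 FRL and 5 of 17 FSL rats.

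Of the 10 genes, 6 have 2 probesets, which are called brighter and dimmer after their mean intensity. These are 1370864_at and 1388116_at for Col1a1, 1370155_at and 1387854_at for Col1a2, 1369955_at and 1376099_at for Col5a1, 1370895_at and 1373463_at for Col5a2, 1373245_at and 1372439_at for Col4a1, and 1367562_at and 1367563_at for Sparc. The others are 1370959_at for Col3a1, 1370956_at for Dcn, 1367594_at for Bgn and 1367749_at for Lum. Intensities of different probesets cannot be compared as amounts of RNA, because probes differ in how well they bind. The paper could not exclude that sequence polymorphisms lie behind some of its differences between the lines, which was not tested here.

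The 5' flanks of 3 genes are shown because the results turn on 3 patterns that these genes stand for. Among the members, Col1a2 varied most between arrays on the log scale and moved with Col3a1. Col4a1 was the only collagen among the members that was called between the lines. The brighter Col5a2 probeset varied least, and no pair of Col5a2 with another member passed. Each is the 250 bases before the start of the gene on its own strand, from RefSeq on build GRCr8, at chr4:33518307-33518556 (plus strand) for Col1a2, chr16:84885347-84885596 (plus strand) for Col4a1 and chr9:55090152-55090401 (minus strand) for Col5a2. Capitals mark TATAAA and CCAAT, searched on both strands as TATAAA or TTTATA and CCAAT or ATTGG, which do not overlap.
Col1a2: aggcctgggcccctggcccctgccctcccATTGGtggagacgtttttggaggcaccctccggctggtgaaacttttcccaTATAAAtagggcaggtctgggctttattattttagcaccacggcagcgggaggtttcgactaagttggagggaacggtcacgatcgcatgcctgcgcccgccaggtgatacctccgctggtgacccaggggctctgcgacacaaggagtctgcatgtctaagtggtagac
Col4a1: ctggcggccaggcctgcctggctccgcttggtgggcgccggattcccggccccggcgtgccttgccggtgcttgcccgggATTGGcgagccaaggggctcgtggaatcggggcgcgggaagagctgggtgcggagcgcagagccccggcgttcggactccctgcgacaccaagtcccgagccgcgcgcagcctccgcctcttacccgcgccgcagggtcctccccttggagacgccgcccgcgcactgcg
Col5a2: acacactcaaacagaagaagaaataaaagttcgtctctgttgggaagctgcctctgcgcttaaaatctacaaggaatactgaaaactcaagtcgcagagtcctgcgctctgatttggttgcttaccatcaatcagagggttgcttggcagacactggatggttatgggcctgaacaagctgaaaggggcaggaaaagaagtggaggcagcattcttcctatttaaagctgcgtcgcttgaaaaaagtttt
Of the 10 genes 6 have an entry in the promoter table, and Col1a1, Col3a1, Dcn and Bgn have none. The Col1a2 flank holds TATAAA 170 bases before the start listed in RefSeq and ATTGG at 221. The Col4a1 flank holds ATTGG at 170, and the Col5a2 flank holds neither in these letters. Whether transcription begins at the listed starts was not tested, so a flank may include transcribed bases. The first motif occurs in 12.9% and the second in 34% of all 33469 flanks listed there. The share of G and C was 58.4% for Col1a2, 75.2% for Col4a1 and 44.8% for Col5a2.

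The line comparison gave few changes among these genes. Over both cohorts, Dcn was higher in FSL than in FRL rats in HIP, and both Col4a1 probesets were lower in FSL in P/FC. The limma model called 1 of the 14 member probesets in HIP, against 7.33% of all probesets tested there, and 2 of 15 in P/FC, against 18.6%, at an adjusted p under 0.05 (Benjamini-Hochberg over all tested probesets). Both shares lie near those backgrounds and are no result particular to these genes. The median log2 difference (FSL minus FRL) of the members was -0.08 in HIP and -0.13 in P/FC, beside medians of -0.0016 and 0.0019 over all probesets. The difference was below 0 for 10 of 14 members in HIP and for 14 of 15 in P/FC, where Dcn was the exception. Nothing in the labels says how many litters the rats came from, and in pieces of tissue fewer cells of a type cannot be told apart from less RNA per cell.

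**Figure D1:**
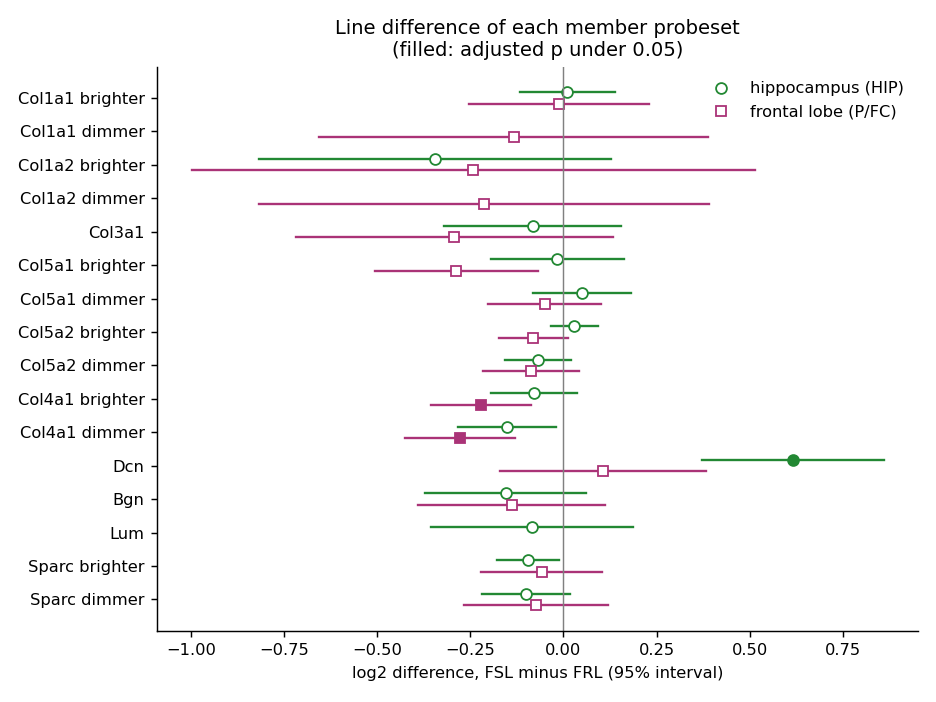
Log2 difference between FSL and FRL rats over both cohorts (x axis) for each member probeset (y axis), in hippocampus (circles) and frontal lobe (squares). Bars are 95% intervals from limma, and filled marks have an adjusted p under 0.05: Dcn in HIP at 0.62 and both Col4a1 probesets in P/FC at -0.22 and -0.28.

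Dcn encodes decorin, which binds type I collagen and also the growth factor TGF-beta. In HIP its intensity ran from 46.8 over a median of 120.0 to 190.7 in the 22 FRL rats, and from 147 over 170.8 to 228 in the 17 FSL rats. The FSL rats lay at the upper end of the FRL range, and each of them was above the median of the FRL rats of its cohort. In cohort 1, 9 of 12 FRL rats were below every FSL rat, and in cohort 2 so were 7 of 10, while the highest FRL rats overlapped most FSL rats. The FRL rats had a mean intensity of 119.6 ± 37.1 (SD, n = 22) and the FSL rats of 176 ± 23.3 (SD, n = 17). The log2 difference was 0.62 (SE 0.12, 95% interval 0.37 to 0.86), a fold change of 1.53, with a limma adjusted p of 6.77e-04. It was 0.69 in cohort 1 (adjusted p = 0.0127, limma) and 0.54 in cohort 2, where the unadjusted limma p was 0.00404 and the adjusted p 0.105.

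The Actb 3'/5' ratio, the log2 ratio of the probesets at the 3' and 5' ends of the Actb control and a sign of RNA quality or of labelling, was lower in FSL than in FRL rats of HIP by 0.10 (means 0.762 and 0.660). With this ratio as a covariate the Dcn difference was 0.46 and lost its call. Its part in the result was not tested further.

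In P/FC the Dcn intensity ran from 43.4 over a median of 73.6 to 139.6 in FRL and from 44.7 over 82.9 to 157 in FSL rats. The lines overlapped over nearly the whole range. The log2 difference was 0.11 (95% interval -0.17 to 0.38, adjusted p = 0.643, limma). The difference between the line effects of the regions was -0.51 (P/FC minus HIP, 95% interval -0.88 to -0.14). It had an unadjusted limma p of 0.00756 and an adjusted p of 0.431, so that it did not pass, and 0.0668% of the 20963 probesets tested in both regions did. None of the 13 member probesets tested in both regions passed that test.

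**Figure D2:**
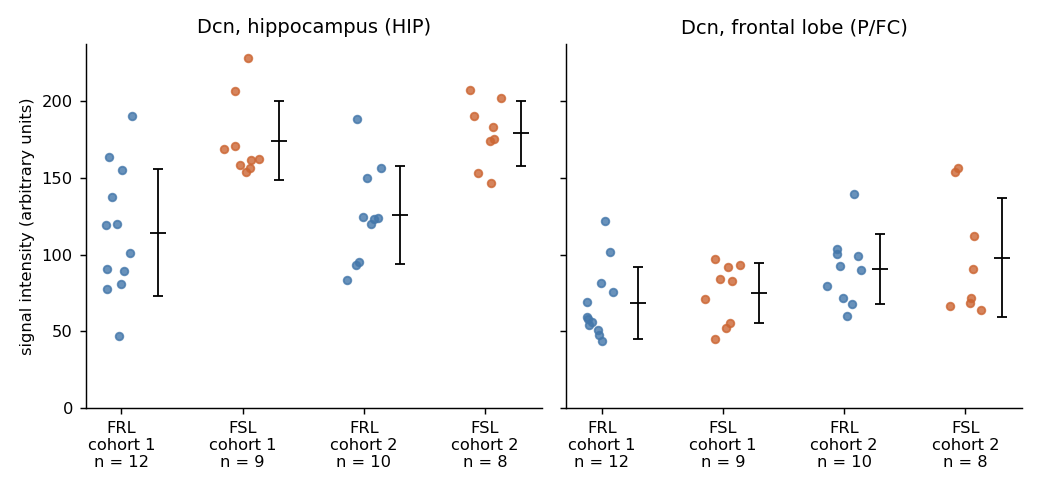
Signal intensity of Dcn (y axis, arbitrary units, from 0) in each FRL and FSL rat of each cohort, in hippocampus (left) and frontal lobe (right). Points are rats and bars are the mean and SD. In HIP the lowest FSL rat is at 147, above the FRL medians of 110.1 in cohort 1 and 123.5 in cohort 2, and in P/FC the lines overlap.

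Col4a1 encodes the alpha 1 chain of type IV collagen, and its flank, shown above, holds the CCAAT motif. A link between the motif and the line difference was not tested. In P/FC the dimmer probeset ran from 80.3 over a median of 107 to 152 in FRL rats and from 76.5 over 89.6 to 102 in FSL rats. All 17 FSL rats were below the median of the FRL rats of their cohort, 9 of 9 in cohort 1 and 8 of 8 in cohort 2. The spread was also narrower in FSL rats, at a mean of 89.5 ± 7.45 (SD, n = 17), beside 110.0 ± 21.4 (SD, n = 22) for FRL rats. The log2 difference was -0.28 (SE 0.073, adjusted p = 0.00625, limma), with -0.27 in cohort 1 (unadjusted p = 0.0110) and -0.29 in cohort 2 (unadjusted p = 0.00959) in the same limma model.

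The brighter Col4a1 probeset ran from 92.6 over 130.9 to 184 in FRL and from 97.1 over 115 to 129 in FSL rats of P/FC. In cohort 2 all 8 FSL rats were below the FRL median, and in cohort 1, 6 of 9 were. The log2 difference was -0.22 (SE 0.066, adjusted p = 0.0169, limma), with -0.13 in cohort 1 and -0.31 in cohort 2. The 2 probesets thus gave differences of similar size, and only the dimmer had an unadjusted p under 0.05 in both cohorts.

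**Figure D3:**
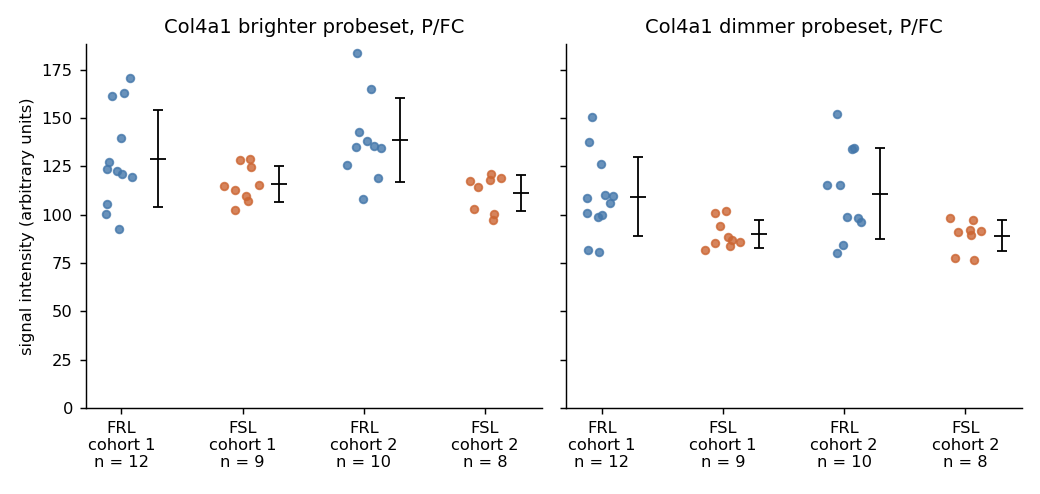
Signal intensity (y axis, arbitrary units, from 0) of the brighter (left) and dimmer (right) Col4a1 probesets in P/FC of each FRL and FSL rat, by cohort. Points are rats and bars are the mean and SD. The FSL rats lie between 97.1 and 129 (brighter) and between 76.5 and 102 (dimmer), within or below the lower part of the FRL range.

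Some markers of endothelial and mural cells were lower in FSL rats of P/FC, as Col4a1 was. In P/FC, 6 of the 16 tested genes of that list were lower in FSL and none was higher, beside 18.6% of all probesets called. The median log2 difference of the list was -0.16. The summed intensity of the list ran from 2271 over 2818 to 3425 in FRL and from 2136 over 2308 to 2785 in FSL rats. Its defining genes were not at 0: Slc2a1, the glucose transporter of the blood-brain barrier, fell by 0.27 on the log2 scale and Cldn5, a tight junction protein of endothelium, fell by 0.28 (adjusted p = 3.50e-04 and 0.00173, limma). With a score of the list as a covariate the Col4a1 differences were -0.04 (brighter) and -0.09 (dimmer), and with the Gapdh 3'/5' ratio they were -0.17 and -0.18. Both lost their calls in either case, and neither measure's part in the result was tested further. Other lists differed in P/FC too. Astrocyte markers were lower for 9 of 10 genes (median -0.24) and microglia markers for 2 of 10 (median -0.21), while neuron markers were higher for 6 of 9 (median 0.19). No score of these 3 lists was used as a covariate, so the loss of the calls is not shown to be particular to vessels.

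In HIP the Col4a1 differences were -0.08 (brighter, adjusted p = 0.458, limma) and -0.15 (dimmer, unadjusted p = 0.0257, adjusted p = 0.161). The brighter probeset gave 0.05 in cohort 1 and -0.21 in cohort 2. That was the only member probeset whose difference between cohorts had an unadjusted p under 0.05 (limma, p = 0.0313, adjusted p = 0.9997).

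None of the 5 fibrillar collagens among the members was called between the lines in either region. Col5a1, which encodes the alpha 1 chain of type V collagen, came closest. Its brighter probeset in P/FC ran from 55.1 over a median of 77.5 to 157 in FRL and from 33.4 over 68.3 to 92.0 in FSL rats, with a log2 difference of -0.29 (unadjusted p = 0.0116, adjusted p = 0.0582, limma). Its dimmer probeset gave -0.05 there (95% interval -0.20 to 0.10), so that the probesets of this gene differed in size. For Col1a2 the intervals were wide, -0.82 to 0.13 in HIP and -0.997 to 0.51 in P/FC for the brighter probeset, and for Col5a2 they were narrow, -0.03 to 0.09 and -0.17 to 0.01. An interval that includes 0 does not show that the lines are alike.

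Among the remaining members, Bgn had log2 differences of -0.16 in HIP and -0.14 in P/FC, and neither passed (adjusted p = 0.441 and 0.475, limma). Lum, whose product organises collagen fibrils in the cornea, gave -0.08 in HIP (95% interval -0.35 to 0.19). Sparc, which binds collagen and is made by astrocytes, gave -0.10 (brighter) and -0.10 (dimmer) in HIP and -0.06 and -0.07 in P/FC, and the brighter probeset in HIP had an unadjusted p of 0.0268 and an adjusted p of 0.165 (limma).

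Within single cohorts, Dcn in cohort 1 of HIP was the only member probeset with an adjusted p under 0.05. All probesets were called at 2.36% in cohort 1 and 2.33% in cohort 2 of HIP, and at 7.8% and 3.78% in P/FC. An unadjusted p under 0.05 in both cohorts was reached by 1 member probeset in each region, Dcn in HIP and the dimmer Col4a1 in P/FC, beside 4.92% and 9.92% of all probesets. The line difference did not pass as different between cohorts for any member, nor for any other probeset (0% in HIP and 0% in P/FC in limma, and the plain analysis of variance also called no member). At an unadjusted p under 0.05 there were 936 probesets in HIP and 1036 in P/FC, among them 1 member in HIP and none in P/FC.

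Levels differed between the regions for most of these genes, and in opposite directions. Col1a1, Col1a2, Col3a1 and Bgn were higher in P/FC than in HIP, and Col5a1, Col4a1 and Dcn were lower. Of the 13 member probesets tested in both regions, 4 were called higher and 5 lower, against 69.6% of all probesets called, whose median log2 difference was 0.08. That so many members differed is thus no result particular to them. The regions were handled in separate runs of the protocol, which cannot be told apart from the region itself, and the labels do not say which arrays come from 1 rat.

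Col1a2, a chain of type I collagen, had the widest relative range of the tested member probesets in both regions. Among the 6 members with a listed flank, it alone has both motifs there, and a link to its range was not tested. Its brighter probeset ran from 25.4 over a median of 41.9 to 263 in HIP and from 27.4 over 77.0 to 523 in P/FC, so that the highest array was 10.4 times the lowest in HIP and 19.1 times in P/FC. The lower ends of the regions coincided and the upper end was higher in P/FC. The log2 difference between regions was 1.12 (SE 0.22, adjusted p = 1.07e-05, limma), or 2.17-fold.

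Col3a1, the chain of type III collagen, ran from 44.5 over 68.6 to 165 in HIP and from 66.3 over 113.5 to 380.0 in P/FC, a log2 difference of 0.92 (adjusted p = 4.95e-10, limma). Bgn, a proteoglycan bound to fibrils, ran from 36.6 over 55.5 to 112 in HIP and from 59.5 over 99.2 to 184 in P/FC, with a difference of 0.86 (adjusted p = 4.08e-15, limma). Both ranges overlapped between the regions. The brighter Col1a1 probeset differed by 0.19 (adjusted p = 0.0101, limma), which with quantile normalisation was 0.10 and did not pass.

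Dcn moved the other way, from a median of 153.7 in HIP to 75.4 in P/FC, a log2 difference of -0.85 (adjusted p = 4.45e-13, limma). The difference was -0.60 in FRL and -1.11 in FSL rats. The dimmer Col5a1 probeset was lower in P/FC by 0.81 (medians 90.9 and 51.8, adjusted p = 1.50e-24, limma) and the brighter by 0.29. For Col4a1 the differences were -0.16 and -0.13. By line, the 2 Col4a1 probesets were called in FSL (-0.23 and -0.20) and not in FRL rats (-0.09 and -0.07, adjusted p = 0.157 and 0.350, limma), and the brighter Col5a1 likewise (-0.42 and -0.15), and no member's difference between the lines in this passed. The levels of Col5a2 and Sparc were not called over both lines, although the brighter Col5a2 probeset was lower in P/FC within FSL rats (-0.10, adjusted p = 0.0339, limma): the brighter Col5a2 probeset spanned 178 to 234 in HIP and 171 to 249 in P/FC (difference -0.04, 95% interval -0.10 to 0.01), and the brighter Sparc probeset from 592 to 861 and from 498 to 1098 (difference -0.04, 95% interval -0.13 to 0.05).

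Lum had a median of 44.2 in HIP (20.8 to 64.7) and of 30.5 in P/FC (14.0 to 69.1) and was not tested between the regions. Lum and Dcn lie next to each other on rat chromosome 7 in the RefSeq table, with 0 protein-coding genes between them, and Col3a1 and Col5a2 are likewise neighbours on chromosome 9. Dcn and Lum both had their lower median in P/FC, whereas Col3a1 was higher there and Col5a2 was not called over both lines.

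Cohort moved 1 probeset more than any other member. The dimmer Sparc probeset ran from 292 over 368 to 489 in FRL rats of cohort 1 and from 737 over 813 to 1085 in those of cohort 2 in HIP, and the 2 ranges did not overlap. Its log2 difference between cohorts was 1.14 in HIP and 0.75 in P/FC (adjusted p = 5.11e-18 and 1.24e-07, limma), whereas the brighter Sparc probeset gave 0.10 and 0.13, neither of which passed. Over all probesets, 39.3% were called between cohorts in HIP and 27.8% in P/FC. Among the members, 2 of 14 were called in HIP, with the dimmer Col4a1 lower in cohort 2 by 0.25, and 4 of 15 in P/FC, with Dcn higher by 0.39, the dimmer Col5a2 higher by 0.18 and the dimmer Col5a1 lower by 0.26. Reagents and array lots changed with the cohort, so that cohort and lot cannot be told apart.

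The members were next compared with each other across arrays. For each gene the brightest tested probeset was used, which for Col5a1 is 1376099_at in HIP and 1369955_at in P/FC, its mean in each line and cohort was subtracted, and each pair was correlated over the 39 arrays of a region (permutation test with 100000 resamples, 2-sided, Benjamini-Hochberg over the pairs of the region). In P/FC 13 of 36 pairs passed, and in HIP 6 of 45 pairs did. All 19 had a positive r. The share of pairs of other probesets that would pass was not measured, so these counts cannot be called particular to the members. At an unadjusted p under 0.05 there were 19 pairs in P/FC and 12 in HIP. Within single cohorts, which hold fewer arrays, 18 pairs passed in cohort 1 and 7 in cohort 2 of P/FC, and 0 and 4 in HIP.

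Col1a2 and Col3a1 gave the highest correlation in both regions. In P/FC Pearson's r was 0.94 (permutation p = 1e-05, the smallest 100000 resamples can give, adjusted p = 6e-05) and Spearman's rho was 0.93 (permutation p = 1e-05). The r was 0.93 in cohort 1 and 0.96 in cohort 2, and 0.93 without the 2 arrays farthest from the median of Col1a2. In HIP r was 0.74 (permutation p = 7e-05, adjusted p = 0.00158) and rho 0.51 (permutation p = 0.00177), with 0.71 and 0.77 in the cohorts, and r was 0.47 without the 2 farthest arrays (permutation p = 0.0100). In HIP 3 FRL arrays had Col1a2 intensities above 100, at 126, 184 and 263, and the other arrays were at 94.9 or below.

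**Figure D4:**
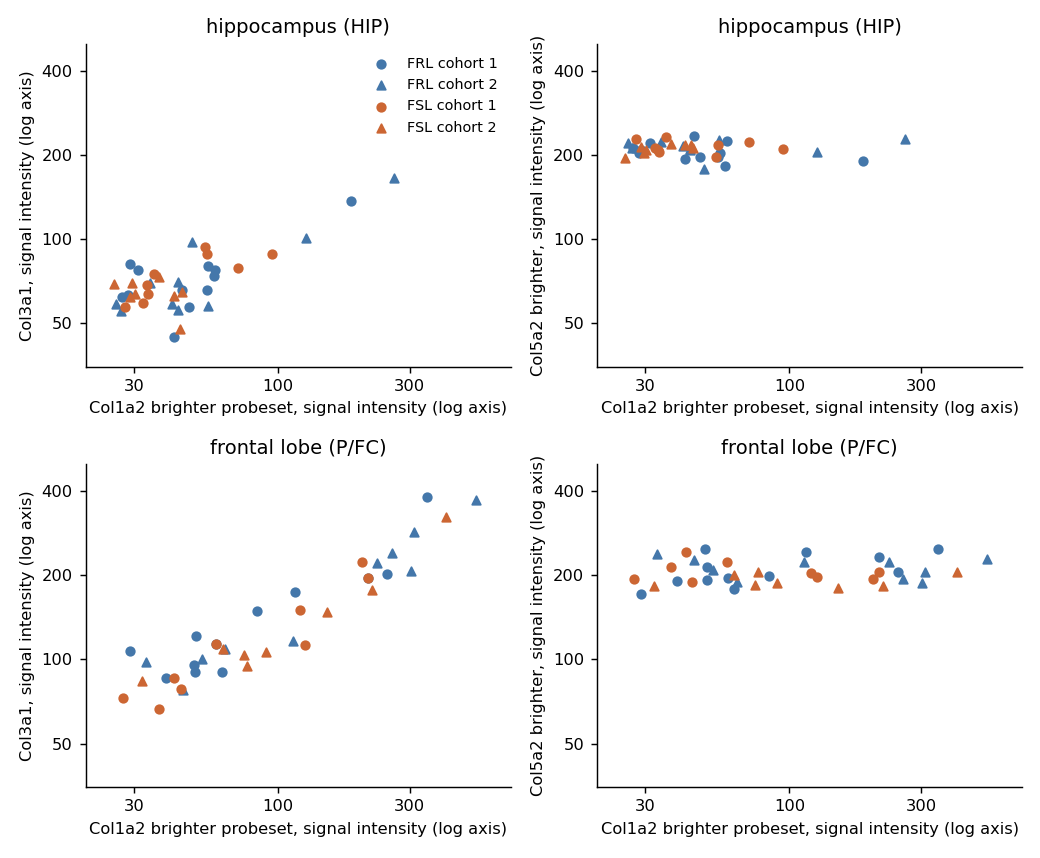
Signal intensity of the brighter Col1a2 probeset (x axis) against Col3a1 (left) and the brighter Col5a2 probeset (right) in HIP (top) and P/FC (bottom), both axes on a log scale in arbitrary units. Each point is 1 array, coloured by line and shaped by cohort. Col3a1 goes up with Col1a2 (r = 0.74 in HIP and 0.94 in P/FC after group means were subtracted), whereas Col5a2 stays between 171 and 249 over the whole range of Col1a2.

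Col1a1, Col1a2, Col3a1 and Bgn formed the group with the highest values. In P/FC all 6 pairs among these genes passed, with r between 0.59 (Col1a1 with Bgn) and 0.94. Col1a2 with Bgn had r = 0.88 (rho 0.86, 0.89 and 0.88 in the cohorts), Col1a1 with Col3a1 had r = 0.86 (rho 0.84) and Col3a1 with Bgn had r = 0.83 (rho 0.80), each with a permutation p of 1e-05 for r. Col1a1 with Col1a2, the chains that build type I collagen together, had r = 0.77 (rho 0.80, permutation p = 1e-05). In HIP 4 of the 6 pairs passed. The r of Col1a2 with Bgn was 0.68 (rho 0.55, permutation p = 4e-05, adjusted p = 0.00158). That of Col1a1 with Col1a2 was 0.61 (rho 0.48, permutation p = 1.40e-04, adjusted p = 0.00210). Col1a1 with Col3a1 had r = 0.52 and did not pass with rho (0.39, permutation adjusted p = 0.077).

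Dcn joined this group in P/FC, where it correlated with Col3a1 (r = 0.68, rho 0.61), Col1a2 (0.65, rho 0.62), Bgn (0.58, rho 0.55) and Col1a1 (0.52, rho 0.48), all passing the permutation test with adjusted p up to 0.00220. Within the lines the r of Dcn with Col1a2 was 0.90 in FRL and 0.34 in FSL rats, and with Bgn it was 0.89 and 0.21, a difference that was not tested. In HIP no pair with Dcn passed, and its r with Bgn was -0.13.

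Col4a1, the basement membrane chain, correlated with Bgn in both regions (r = 0.44 and rho 0.44 in P/FC, r = 0.48 and rho 0.43 in HIP, permutation adjusted p of r = 0.0215 and 0.0424). In HIP it also correlated with Col1a1 (r = 0.46, permutation adjusted p = 0.0490). Neither HIP pair passed with rho (permutation adjusted p = 0.0728 for Bgn and 0.0605 for Col1a1). Col5a1 correlated with Dcn (r = 0.47, rho 0.48) and Bgn (r = 0.46, rho 0.40) in P/FC (permutation adjusted p = 0.00815 and 0.0152). The last fell to 0.33 without the 2 farthest arrays (permutation p = 0.0583), while its rho passed over all 39 arrays (permutation adjusted p = 0.0391). No pair with Col5a2 or Sparc passed in either region, nor any with Lum in HIP. The difference between the regions was not tested for any pair.

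**Figure D5:**
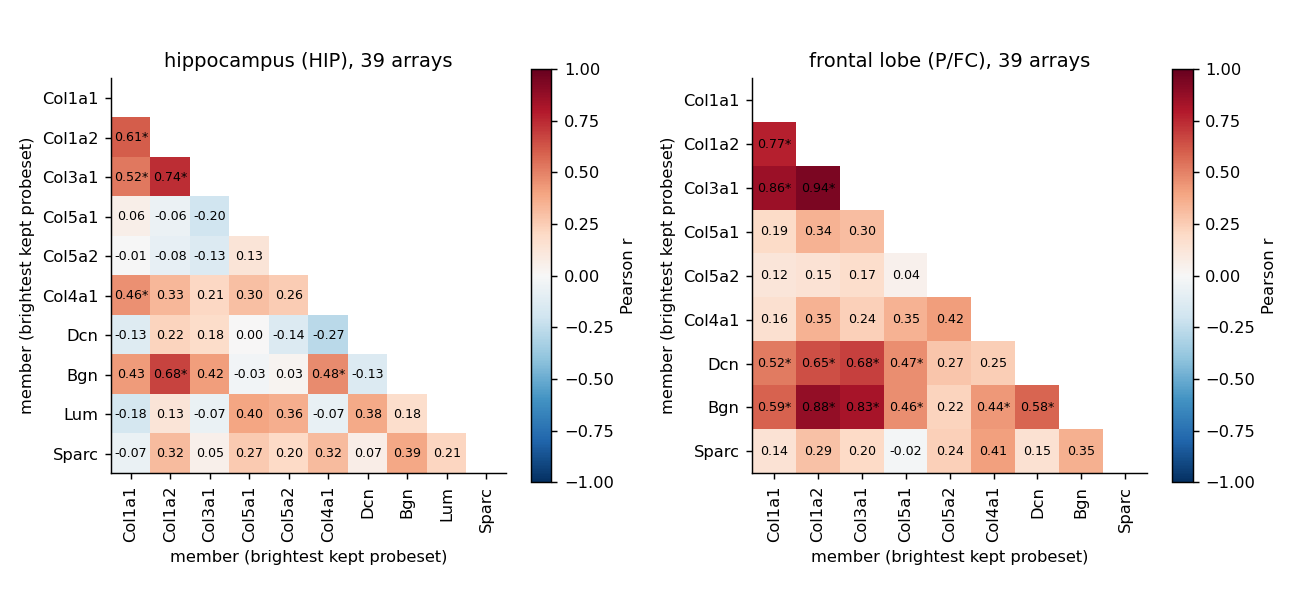
Pearson's r between each pair of members (both axes, brightest tested probeset) over the 39 arrays of HIP (left) and of P/FC (right), after the mean of each line and cohort was subtracted. Colour and number give r, and a star marks an adjusted permutation p under 0.05: 6 of 45 pairs in HIP and 13 of 36 in P/FC, where Lum was not tested.

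The group of correlated genes also moved with markers of the meninges, the membranes around the brain. A score, the mean scaled level of the listed marker genes without the members, was correlated with each member in the same way, over 45 relations in P/FC and 50 in HIP. In P/FC r was 0.95 with Col1a2 (rho 0.92), 0.92 with Col3a1 (rho 0.88), 0.86 with Bgn (rho 0.83), 0.75 with Col1a1 (rho 0.76) and 0.60 with Dcn (rho 0.50), all passing the permutation test (adjusted p up to 7.88e-04). In HIP r was 0.87 with Col1a2 (rho 0.74), 0.82 with Col3a1 (rho 0.72), 0.63 with Col1a1 (rho 0.49) and 0.59 with Bgn (rho 0.45), with permutation adjusted p up to 0.00900. Within cohorts these r lay between 0.48 (Dcn in cohort 2) and 0.96 in P/FC, and between 0.39 (Bgn in cohort 1) and 0.93 in HIP. Without the 2 arrays farthest from the median of the score, r in HIP was 0.75 (Col1a2), 0.65 (Col3a1), 0.43 (Col1a1) and 0.39 (Bgn). In P/FC it then lay between 0.49 (Dcn) and 0.95 (Col1a2).

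The summed level of the meningeal list, whose brightest genes are Ptgds, the prostaglandin D synthase of the meninges and choroid plexus, and Apod, a lipid carrier, ran from 1518 over 2843 to 7765 in FRL and from 1775 over 2846 to 6752 in FSL rats of P/FC. In HIP it ran from 2064 over 2693 to 6678 and from 1890 over 2405 to 5176. None of its 12 tested genes in P/FC and none of its 11 in HIP was called between the lines by limma.

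The members had overlapping partners among the other cell types. With the endothelial and mural score, Col4a1 had the highest r in P/FC at 0.69 (rho 0.59, permutation p = 6e-05, adjusted p = 4.50e-04, 0.81 and 0.51 in the cohorts), and 7 of the 9 members passed, while in HIP Col1a2 (0.55) and Bgn (0.55) were the 2 that did. Col4a1 also correlated with the microglia score (r = 0.60, rho 0.50, adjusted p = 0.00209, permutation) and the astrocyte score (r = 0.60, rho 0.39, adjusted p = 0.00428, permutation) in P/FC. There Sparc correlated with the microglia score (r = 0.65, adjusted p = 4.50e-04, permutation) and the astrocyte score (r = 0.64, adjusted p = 6.43e-04, permutation), and Col5a2 with the astrocyte score (r = 0.63, adjusted p = 0.00153, permutation), the endothelial score (r = 0.44) and the microglia score (r = 0.43, both with adjusted p = 0.0345, permutation). The choroid plexus score had a negative r with Col5a1 (-0.43) and Col4a1 (-0.38) in P/FC, both with adjusted p = 0.0345 (permutation). In all, 20 of 45 relations passed in P/FC and 6 of 50 in HIP. The share that would pass for other probesets was not measured here either.

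Among all other genes on the array, those whose levels were most like those of the members on average were Vim (intermediate filament, mean r 0.63), Dab2 (endocytic adaptor, 0.62), Sned1 (0.60), Ogn (osteoglycin, a leucine-rich proteoglycan, 0.59), Ifitm2 (0.59), Slc13a3 (0.59) and Slc22a8 (an organic anion transporter, 0.58) in P/FC, beside 3 probesets with no symbol. In HIP they were Slc6a20a (amino acid transporter, 0.38), Dab2 (0.36), Gstm2 (0.34), Gjb2 (0.34), Ptgds (0.33), Perp (0.32) and Tesk2 (0.32), beside 2 with no symbol. These are means of r over 39 arrays of 1 region each, which share tissue piece and labelling, and they come with no p. The 99th percentile over all other probesets was 0.36 in P/FC and 0.24 in HIP. Dab2 was in both, and Slc13a3, Slc22a8, Gjb2 and Ptgds are on the meningeal list as well.

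Other genes of the matrix, taken from lists of known function and each represented by its brightest tested probeset, also held called genes. Most of those calls did not hold up under every alternative: of the 26 calls named here, each a gene in 1 region, 17 were lost with the endothelial score as a covariate, 15 with the Gapdh ratio and 10 with the Actb ratio. Those of Col6a1 and Fn1 in both regions and of Sparcl1 and Pdgfc in P/FC, 6 in all, were kept in all the alternatives run. Of the other collagens 3 of 23 were lower in FSL in HIP and 6 of 25 in P/FC, and none was higher. Over all tested probesets, 7.33% were called in HIP and 18.6% in P/FC, in either direction. The counts of the matrix lists here and below stand beside those shares and were not tested against them. Col6a1, a chain of the beaded type VI filaments, had a mean of 130 in FRL and 58.9 in FSL rats of HIP, a log2 difference of -1.15 (SE 0.050, adjusted p = 4.97e-20, limma). In P/FC its means were 153 and 35.8, a difference of -2.10 (SE 0.12, adjusted p = 5.51e-16, limma). Col11a2, a minor fibrillar chain, fell by 0.24 in HIP and by 0.42 in P/FC, Col5a3 fell by 0.47 in HIP and Col27a1 fell by 0.48 in P/FC. The calls of these 3 genes were lost with the endothelial score, and that of Col5a3 also without FSL replicate 8 of cohort 1 or without FSL replicate 1 or 2 of cohort 2. Col4a2, whose chain joins that of Col4a1 in type IV collagen and whose gene is next to Col4a1 on chromosome 16, had differences of -0.05 in HIP and -0.15 in P/FC, neither of which passed (adjusted p = 0.764 and 0.167, limma).

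Among the other small leucine-rich proteoglycans Prelp, which anchors collagen to basement membranes, was the one called. It was higher in FSL by 0.60 in HIP (means 56.8 and 85.8, adjusted p = 0.00119, limma) and by 0.39 in P/FC (63.9 and 82.4, adjusted p = 0.00617, limma), of 5 and 6 tested. It lost its call with the Actb ratio in HIP and with the Gapdh ratio in P/FC. Of the matrix glycoproteins 3 of 15 were lower in HIP and 3 of 16 in P/FC, none higher. Fn1, fibronectin, fell by 0.64 in HIP (means 177 and 116) and by 0.84 in P/FC (247 and 139), with limma adjusted p of 4.96e-09 and 2.24e-10. Sparcl1, the relative of Sparc made by astrocytes, fell by 0.11 and by 0.17, Fbln2 fell by 0.16 in HIP and Mgp fell by 0.47 in P/FC. Sparcl1 in HIP was lost with the Actb ratio. With the endothelial score Mgp was at -0.09 and lost its call, as did Fbln2, which was also lost without FRL replicate 8, FSL replicate 1 or FSL replicate 7 of cohort 2 or without FSL replicate 6 of cohort 1.

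The enzymes that modify collagen gave 1 lower of 14 in HIP (P4ha1, a prolyl hydroxylase, -0.16) and 2 lower of 13 in P/FC (P4ha1, -0.13, and Bmp1, the procollagen C-proteinase, -0.18). P4ha1 in HIP lost its call in 29 of 49 alternatives, 24 of them with a single array left out, and in P/FC both genes were lost with the endothelial score, P4ha1 at -0.06. No gene of collagen breakdown was called, of 7 in each region. Of the collagen receptors Ddr2 was lower in HIP (-0.19, 1 of 3), and the integrins Itga1 and Itgb1 were lower in P/FC (-0.36 and -0.36, 2 of 4), and all 3 were lost with the endothelial score, with Itgb1 at -0.12. Of the other basement membrane genes 0 of 11 were called in HIP and 3 of 11 in P/FC, all lower: Agrn (-0.16), Lamb2 (-0.26) and Nid1 (-0.13). With the endothelial score, which was lower in FSL rats there, Agrn was at -0.08 and Lamb2 at -0.05 and none of the 3 was called, nor was any with the Gapdh ratio. Nid1 was also lost without FRL replicate 5 of cohort 2 or without FSL replicate 6, 7 or 9 of cohort 1. The TGF-beta and platelet-derived growth factor genes gave 0 of 9 in HIP and, in P/FC, 2 higher and 2 lower of 11, among them Pdgfc (0.24), Pdgfra (-0.33), which is also a marker of oligodendrocyte precursors, and Tgfbr1 (-0.23). Pdgfra, at -0.11, and Tgfbr1, at -0.10, were lost with the endothelial score.

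Hippocampus markers, 6 genes in HIP and 5 in P/FC, summed to between 2177 and 2988 in HIP and between 1077 and 1570 in P/FC. Markers of other cell types differed between the lines as well. Astrocyte markers were lower in FSL for 7 of 10 genes in HIP and 9 of 10 in P/FC, and neuron markers were higher for 3 of 9 and 6 of 9. Microglia markers gave 1 higher and 1 lower of 9 in HIP and 2 lower of 10 in P/FC. These counts stand beside 7.33% of all probesets called in HIP and 18.6% in P/FC. Striatum markers had a median log2 difference of 0.58 in P/FC (1.09 in cohort 1 and 0.11 in cohort 2), with summed levels from 1007 over 1772 to 5672 in FRL and from 1295 over 3309 to 5936 in FSL rats. With a striatum score as a covariate the brighter Col4a1 probeset was at -0.17 and lost its call. Choroid plexus markers, whose brightest gene Ttr encodes transthyretin, summed to between 344 and 11860 in FRL and between 349 and 14980 in FSL rats of HIP, with none of the 7 called. The part of these markers in the members' differences was not tested further.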

How the data were processed

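RNA of HIP and P/FC was measured on Affymetrix Rat Genome 230 2.0 arrays. Rosetta Resolver was used by the authors for extraction and normalisation, and they deposited 1 linear intensity per probeset and array. Line, cohort and region were taken from strain and title, since for some P/FC samples of FSL rats another label names FRL. The number of columns that belong to no sample was 0. The labelling batch, which the authors modelled, is not in the labels used here.

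The members and lists were chosen with earlier results of these data known. Before log2 a floor of 1 was set, and 57 control probesets were left out. In each region limma 3.58.1 (R 4.3.3) fitted 1 mean per line and cohort, and the lines were contrasted with equal weight on the 2 cohorts. The regions were contrasted over 78 arrays as if independent. Correlations used numpy 2.4.6 in Python 3.11.15. The procedure was checked on simulated data. Named were all members, up to 3 genes of each matrix list and region with the smallest adjusted p, where called, the 2 brightest genes of marker lists and the 10 probesets most like the members. Col4a2, and the cohort differences, were picked after their values were seen. Sequences were read from RefSeq tables. Alternatives were the filter, normalisation, 16 added before log2, analysis of variance, covariates, replicate block and each array left out.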

Additional observations from a re-analysis of the deposited data

Results flagged for a closer look

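In 8 of 96 groups of 1 probeset, region, line and cohort, the extreme rat stood apart, its gap to the nearest other rat taking up more of the group's range than Dixon's 95% value allows. Gap and range were taken on the log2 scale, whereas the intensities below are not logged. Chance gives about 1 in 20 groups, or 4.8 of 96. The other 32 of the 128 groups, the FRL rats of cohort 1, hold over 10 rats and were not examined.

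In HIP there were 5. FRL replicate 3 of cohort 2 was highest for the dimmer Col1a1 probeset (102.0 against 46.2 for the next rat, gap ratio 0.497) and for Bgn (112 against 62.3, 0.541). FSL replicate 8 of cohort 2 was lowest for Col3a1 (47.8 against 62.3, 0.616), and FSL replicate 3 of cohort 2 was lowest for the brighter Col5a1 probeset (66.2 against 88.0, 0.627). FRL replicate 2 of cohort 2 was lowest for the brighter Col5a2 probeset (178 against 206, 0.584).

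In P/FC there were 3. The dimmer Col5a2 probeset had FRL replicate 2 of cohort 2 lowest (69.7 against 96.2, 0.520) and FSL replicate 8 of cohort 1 highest (104.9 against 88.3, 0.521). Lum had FSL replicate 2 of cohort 1 lowest (15.9 against 21.7, 0.508). None of these rats was left out.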

How the results depend on the processing

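Of the 56 results followed, 38 were differences of single probesets that had been called, and the others were counts, which have no direction. None of the 38 changed direction in any alternative. Of the 2645 alternative values of all results, 2532 kept their side of the threshold or stayed within 1.5 times the count. The number of members called between the lines in HIP, 1 (Dcn), was 0 with the Actb ratio, and 1 to 2 with 1 array left out (2 without FRL replicate 12 of cohort 1). The number past p 0.05 in both cohorts, 1 in HIP, was 1 to 2 with 1 array left out, again 2 without that array. In P/FC the 2 called were 1 with a filter of 100, 0 with the Gapdh ratio, 0 with the endothelial score and 1 with the striatum score, which was added after the data were seen. The 1 past p 0.05 in both cohorts was 0 with a filter of 100, and for genes, 0 became 1 where the probesets of each gene were averaged. Of the 9 called between regions 1 was called with a filter of 100, which left 4 of 13 members. The 6 coupled pairs in HIP were 3 with Spearman, 0 in cohort 1 alone and 3 with the 2 farthest arrays left out, and the 13 in P/FC were 7 in cohort 2 alone. Fewer arrays and fewer probesets go with those settings, and for the other settings the cause was not tested.

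With the replicate number as a block, 2 members were called in HIP and 2 were past p 0.05 in both cohorts. The labels do not say that the number pairs the samples. Deviations of same-numbered FSL and FRL arrays correlated above 0.1 in 8 of 17 pairs in HIP (median r 0.09) and 10 of 17 in P/FC (median r 0.15). Of 39 HIP arrays, 7 were best correlated with their own number in P/FC. A pairing by number was not tested further. Probesets near an intensity of 30, such as Lum, Col1a1 and Col1a2, are limited by signal over background.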
